A study of Danio rerio with 36 samples.

Results

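The genes described here encode inducible feedback regulators of inflammatory signalling: nfkbiaa, nfkbiab, nfkbiz, tnfaip3, zc3h12a, socs1a, socs3a and socs3b. They were picked by symbol from the tables of both experiments and number 8 of 24860 genes in experiment 1 and 8 of 25077 in experiment 2. The 8 genes were chosen by name with earlier results of these data in view, among them the lower level of zc3h12a in axenic heads of experiment 1. Axenic values of experiment 1 are therefore a description and carry no test, and values of experiment 2 are not independent support.

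RNA was counted in pooled heads of larvae of a mixed wild-type zebrafish line, taken anterior to the swim bladder at an age of 10 days. Axenic larvae were free of microbes, conventional larvae carried microbes and served as the control, and re-colonized larvae were made axenic and then given microbes on day 1, which controls for the derivation. Experiment 1 held 6 libraries of each group from total RNA depleted of ribosomal RNA. In experiment 2, libraries came from polyA-selected RNA of 4 axenic (1, 3, 4 and 7), 7 re-colonized and 7 conventional pools. The sources used here give neither the number of heads in a pool nor whether pools came from separate spawns, and p-values therefore measure only how these pools vary, which may be technical.

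NF-κB is a family of transcription factors held inactive by inhibitor (IκB) proteins until microbial products or cytokines trigger the inhibitors' breakdown. NF-κB then switches on genes that include its own inhibitors, so the level of these transcripts follows recent signalling. Cytokine receptors that act through JAK kinases and STAT factors have a matching loop, in which SOCS proteins block the kinases that induced them. Zebrafish carry duplicates of several of these genes, marked a and b, and most roles given below were worked out in mammals.

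Total counts per library ran from 11716737 to 15017645 in experiment 1 and from 15148068 to 25760598 in experiment 2. All 8 genes passed the filter on low counts in both experiments, with 9 to 1457 counts per library in experiment 1 and 6 to 2138 in experiment 2. The biological coefficient of variation over all genes was 16.5% in experiment 1 and 35.5% in experiment 2. Re-colonized libraries 1 and 7 of experiment 2 stood apart in their TMM scaling factors, 1.549 and 1.376, where the other 16 libraries of that experiment had at most 1.208. Conventional libraries 2, 3, 4, 6 and 7 of that experiment had factors from 0.7694 to 0.822. The lowest factor was 0.9281 among axenic and 0.8601 among re-colonized libraries. The titles of experiment 1 hold L6 for axenic and re-colonized libraries and L7 for conventional ones, a code left unexplained there, so a difference from conventional heads cannot be told apart from it. Neuron, retina, muscle and cartilage or bone markers were present in every group. Several of these lists were higher in axenic heads, with 8 of 8 muscle and 10 of 14 skin markers called higher than in conventional heads of experiment 1, where 8.89% of all genes were.

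The IκB genes were each lower in axenic heads of experiment 1. nfkbiaa (chr20:16881883-16884738, plus strand, GRCz11, as are all positions here) is protein-coding and related to mammalian IκBα, an inhibitor that NF-κB itself induces. It lay at 10.2 to 16.8 CPM (counts scaled to library size with TMM factors; median 10.8) in axenic heads, 13.6 to 27.3 (median 20.7) in re-colonized and 18.3 to 26.6 (median 19.9) in conventional heads. Every axenic library was below every conventional one, while axenic C at 16.8 CPM lay inside the re-colonized range. Its log2 fold change (± SE) was -0.79 ± 0.15 against conventional and -0.80 ± 0.15 against re-colonized heads.

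The duplicate nfkbiab (chr17:12942021-12949755, plus strand) had the smallest differences of the 8 genes in experiment 1. It lay at 35 to 66.7 CPM (median 45) in axenic, 55.3 to 110 CPM (median 71.8) in re-colonized and 62.3 to 97.4 CPM (median 70.1) in conventional heads. Axenic C overlapped both other groups, and axenic G at 58.4 CPM overlapped the re-colonized one. The log2 fold changes were -0.60 ± 0.16 and -0.66 ± 0.16.

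nfkbiz (chr1:18716-23390, plus strand) encodes IκBζ, a nuclear IκB that in mouse cells is needed to induce a second set of NF-κB targets. It lay at 12.5 to 22 CPM (median 18.4) in axenic, 30.4 to 51.4 CPM (median 40.1) in re-colonized and 31.7 to 41.6 CPM (median 35.7) in conventional heads of experiment 1. No axenic library reached any colonized one. The log2 fold changes were -1.03 ± 0.13 and -1.22 ± 0.13, that is 2.05- and 2.33-fold lower.

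tnfaip3 (chr13:1182257-1208931, plus strand) encodes A20, a ubiquitin-editing enzyme that stops signalling upstream of NF-κB. In experiment 1 it lay at 6.85 to 9.52 CPM (median 8.53) in axenic, 11.5 to 17.7 CPM (median 12.7) in re-colonized and 9.30 to 17 CPM (median 12.7) in conventional heads. Axenic and re-colonized heads did not overlap, while axenic D at 9.52 CPM exceeded conventional C at 9.30 CPM. The log2 fold changes were -0.65 ± 0.14 against conventional and -0.72 ± 0.14 against re-colonized heads.

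zc3h12a (chr16:3982590-4001744, plus strand) encodes Regnase-1, a ribonuclease that in mammals degrades inflammatory transcripts. It had the largest difference of the 8 genes in experiment 1, with 0.903 ± 0.271 CPM in axenic (SD, n = 6), 5.50 ± 2.45 in re-colonized and 4.75 ± 1.38 in conventional heads. The axenic libraries ranged from 0.583 to 1.35 CPM (median 0.889), the re-colonized from 2.17 to 9.21 (median 5.13) and the conventional from 2.65 to 6.36 (median 4.56). No axenic library overlapped a colonized one, and axenic heads were 5.24-fold lower than conventional and 6.05-fold lower than re-colonized heads. The log2 fold changes were -2.39 ± 0.30 and -2.60 ± 0.30. These axenic values rest on 9 to 19 counts per library.

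socs1a, socs3a and socs3b encode suppressors of cytokine signalling. socs1a (chr3:26813058-26814954, plus strand) lay at 3.62 to 17.2 CPM (median 9.25) in axenic, 14 to 33 CPM (median 18.9) in re-colonized and 17.7 to 33.9 CPM (median 22.2) in conventional heads of experiment 1. Only axenic C at 17.2 CPM came close to the conventional range, and it lay inside the re-colonized one. The log2 fold changes were -1.28 ± 0.25 against conventional and -1.09 ± 0.25 against re-colonized heads.

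socs3a (chr3:57423137-57425962, minus strand) lay at 13.8 to 29.4 CPM (median 16.4) in axenic, 25.5 to 63.2 CPM (median 38.9) in re-colonized and 32 to 68.9 CPM (median 44.8) in conventional heads, and axenic C again was the one axenic library inside the re-colonized range. Its log2 fold changes were -1.35 ± 0.22 and -1.18 ± 0.22. socs3b (chr12:34258139-34277466, plus strand) lay at 17.4 to 21.6 CPM (median 19.8) in axenic, 26.5 to 49.1 CPM (median 31.1) in re-colonized and 26 to 40.6 CPM (median 31.7) in conventional heads. Neither colonized group overlapped the axenic one for socs3b, with log2 fold changes of -0.74 ± 0.14 and -0.87 ± 0.14.

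**Figure D1:**
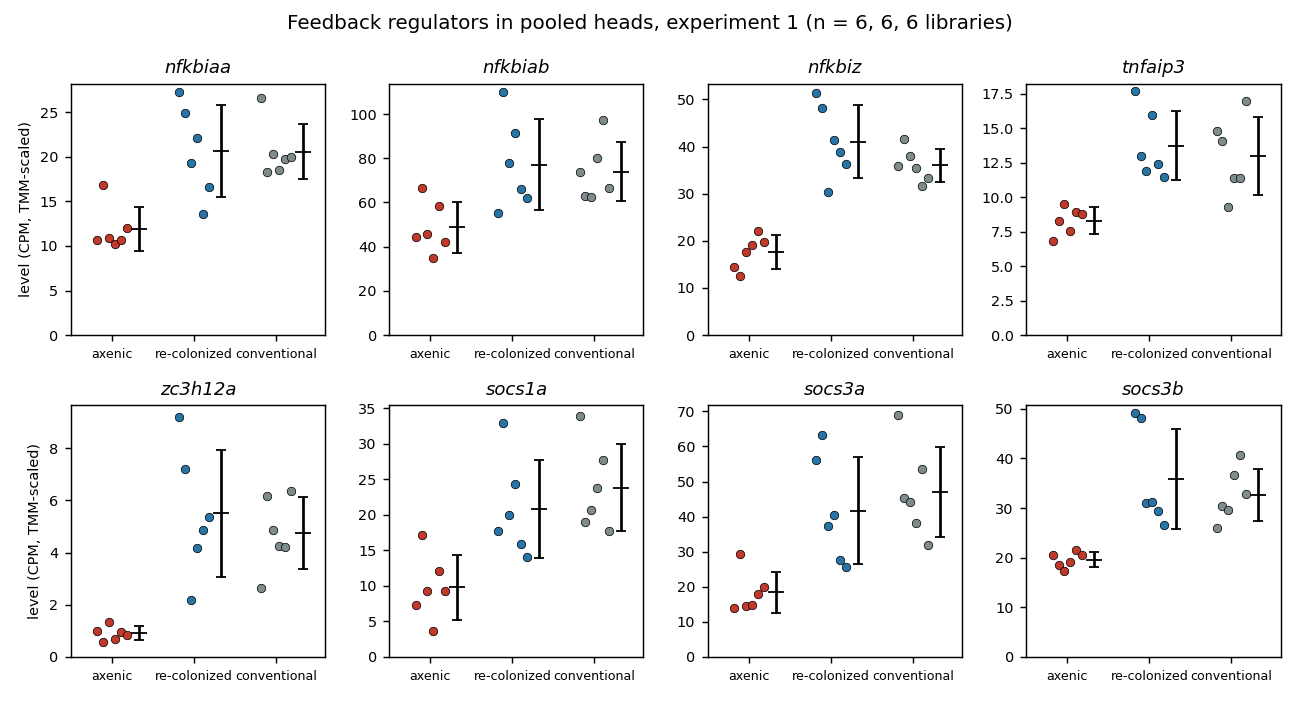
CPM of each gene in every library of experiment 1 (y axis, from 0), by group, with the group mean ± SD beside the points. The axenic mean is the lowest in each panel. For nfkbiz, zc3h12a and socs3b no axenic library reached a colonized one, while axenic and colonized points overlap in the other panels.

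Against conventional heads of experiment 1, the adjusted p of edgeR's quasi-likelihood test was under 0.05 for 8 of the 8 genes, and 6.71% of all 19727 genes tested were called lower. Axenic libraries lay wholly below the conventional ones for 6 of the 8, and for 2.78% of all genes. Against re-colonized heads the 8 genes were likewise called, with 8.27% of all genes called lower, and 4 of the 8 had no overlap, against 3.07% of all genes. Because these contrasts chose the genes, nothing is read from those counts. The median log2 fold change of the 8 genes was -0.91 and -0.98, and over all genes it was -0.008 and 0.009. Both comparisons share the axenic libraries.

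Between re-colonized and conventional heads of experiment 1 no difference was detected for any of the 8 genes. Log2 fold changes ran from -0.19 for socs1a to 0.21 for zc3h12a, with 0 of 8 genes called and 0 at an unadjusted p under 0.05 in edgeR, 0 called by DESeq2 or limma voom, and 0.0152% of all genes called. The 95% interval was -0.30 to 0.31 for nfkbiaa and -0.07 to 0.45 for nfkbiz. For zc3h12a it was -0.30 to 0.72 and for socs1a -0.68 to 0.30, so differences of that size are not excluded.

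In experiment 2 nfkbiz and socs3b fell in axenic against conventional heads, and nfkbiz also against re-colonized heads. nfkbiz lay at 5.08, 4.99, 5.37 and 4.49 CPM in axenic libraries 1, 3, 4 and 7. It lay at 12.2 to 41.7 CPM (median 26.2) in re-colonized and 10.1 to 64.5 CPM (median 30.9) in conventional heads. The axenic libraries lay within a coefficient of variation of 7.32%, while the conventional ones varied by 57.6%, and no axenic library reached a colonized one. The log2 fold change was -2.79 ± 0.45 against conventional (6.91-fold lower, edgeR adjusted p = 0.000552) and -2.25 ± 0.44 against re-colonized heads (4.74-fold lower, adjusted p = 0.00422), lower in 4 of 4 axenic libraries. Without re-colonized 1 and 7 these were -2.82 (adjusted p = 0.000341) and -2.52 (adjusted p = 0.00426).

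socs3b lay at 10.5, 7.89, 11.9 and 8.39 CPM in the axenic libraries of experiment 2, 11.5 to 21.8 CPM (median 15.9) in re-colonized and 12 to 27.2 CPM (median 21.1) in conventional heads. Every axenic library was below every conventional one, by a narrow gap from axenic 4 at 11.9 CPM to conventional 4 at 12 CPM. The log2 fold change was -1.02 ± 0.24 (edgeR adjusted p = 0.012), and the adjusted p was 0.061 without axenic 7. Against re-colonized heads it was -0.73 ± 0.24 (adjusted p = 0.0981). DESeq2 gave 0.0488 and limma voom 0.0435 for that comparison, which made 2 genes called in place of 1.

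socs3a lay at 5.48, 2.5, 5.5 and 1.47 CPM in axenic libraries, 3.93 to 15.7 CPM (median 6.61) in re-colonized and 5.62 to 10.1 CPM (median 8.11) in conventional heads. The axenic and conventional groups did not overlap, but the log2 fold change of -1.10 ± 0.37 missed the threshold (edgeR adjusted p = 0.0774). It was called with DESeq2 (adjusted p = 0.0261), with limma voom (0.0353) and, in edgeR, without re-colonized 1 and 7 (0.0392). Against re-colonized heads it was -1.01 ± 0.36 (adjusted p = 0.145). With a replicate block in edgeR, a pairing that the labels do not state, socs3a was called in both comparisons (adjusted p = 0.00357 and 0.012).

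socs1a lay at 3.04, 0.941, 2.28 and 0.239 CPM in axenic libraries, 1.90 to 4.81 CPM in re-colonized and 1.60 to 8.57 CPM in conventional heads, with a log2 fold change of -1.23 ± 0.49 against conventional heads (edgeR adjusted p = 0.145). The lowest value, in axenic 7, is 6 counts. nfkbiab lay at 64.4, 36.8, 39.1 and 21.9 CPM in axenic libraries against 18.8 to 113 CPM in conventional ones, at a log2 fold change of -0.81 ± 0.39 (adjusted p = 0.236). The groups overlapped for both genes.

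The other 3 genes had the smallest differences from conventional heads in experiment 2. The log2 fold change against conventional heads was -0.31 ± 0.32 for nfkbiaa (edgeR adjusted p = 0.639), -0.13 ± 0.36 for tnfaip3 (adjusted p = 0.886) and -0.71 ± 0.47 for zc3h12a (adjusted p = 0.428). Their 95% intervals, -0.96 to 0.35, -0.87 to 0.61 and -1.68 to 0.27, do not exclude a lower level in axenic heads. Against re-colonized heads nfkbiaa was at -0.58 ± 0.32, tnfaip3 at -0.58 ± 0.36 and zc3h12a at -0.68 ± 0.47. None of them was called there (edgeR adjusted p = 0.422, 0.499 and 0.557). zc3h12a lay at 0.299, 0.900, 0.738 and 0.318 CPM in axenic libraries, 0.53 to 1.24 CPM in re-colonized and 0.380 to 1.72 CPM in conventional heads, on 6 to 34 counts. Its conventional mean was 4.75 ± 1.38 CPM (SD, n = 6) in experiment 1 and 0.916 ± 0.478 CPM (n = 7) in experiment 2, from library types that were scaled apart, and whether its fold change differed between experiments was not tested.

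**Figure D2:**
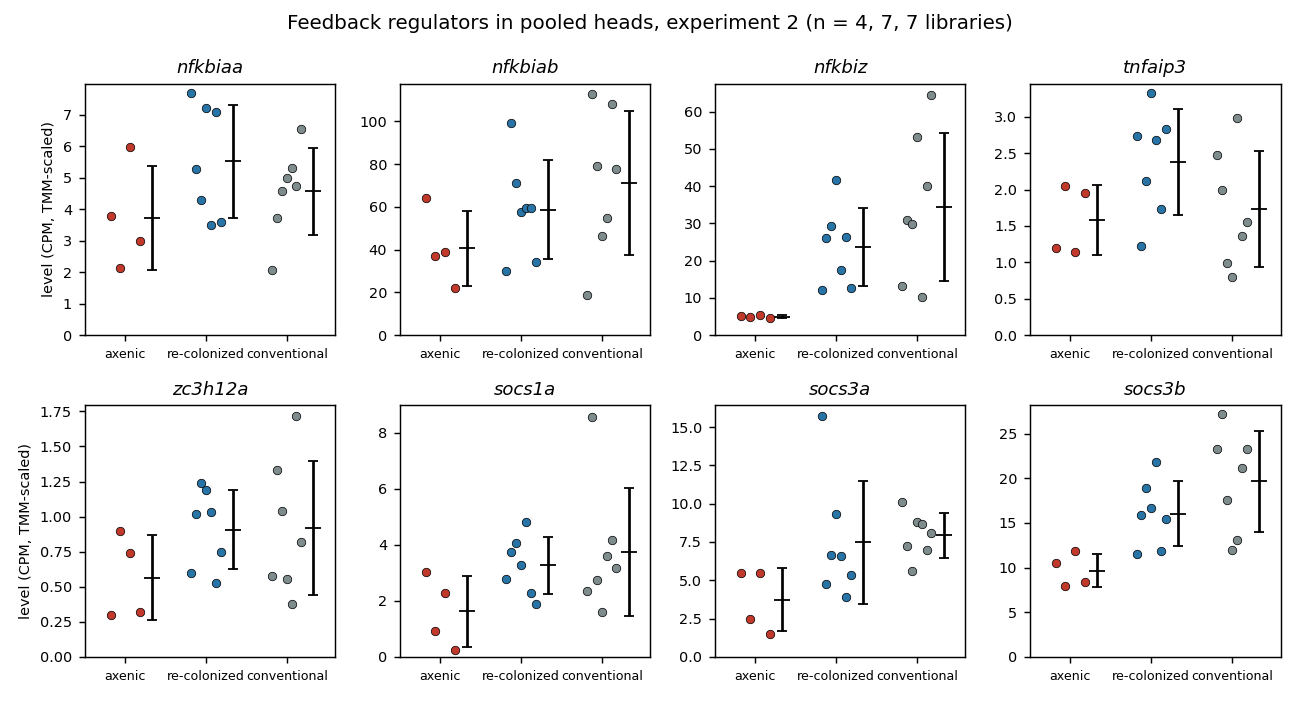
CPM of each gene in every library of experiment 2 (y axis, from 0), by group, with the group mean ± SD. The 4 axenic libraries of nfkbiz sit between 4.49 and 5.37 CPM, below every colonized library, while the groups of nfkbiaa, tnfaip3 and zc3h12a overlap.

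In axenic against conventional heads of experiment 2, 2 of the 8 genes were called, with 2.15% of all 20169 genes called lower. Axenic libraries lay wholly below the conventional ones for 3 of the 8 genes and for 1.95% of all genes. The log2 fold change was below 0 for 8 of 8 genes and the unadjusted p was under 0.05 for 5. Against re-colonized heads 1 gene was called, beside 0.64% of all genes, and 1 had no overlap, beside 1.24% of all genes. The median log2 fold change of the 8 genes was -0.92 and -0.71, and over all genes 0.044 and -0.006.

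Re-colonized against conventional heads of experiment 2 gave 0 of 8 genes called in edgeR, 0 at an unadjusted p under 0.05, 0 by DESeq2 or limma voom, and 0% of all genes called. Log2 fold changes ran from -0.54 for nfkbiz to 0.45 for tnfaip3, whose 95% intervals were -1.23 to 0.14 and -0.17 to 1.07. The interval of zc3h12a was -0.82 to 0.77, so differences of about that size would not have been seen.

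**Figure D3:**
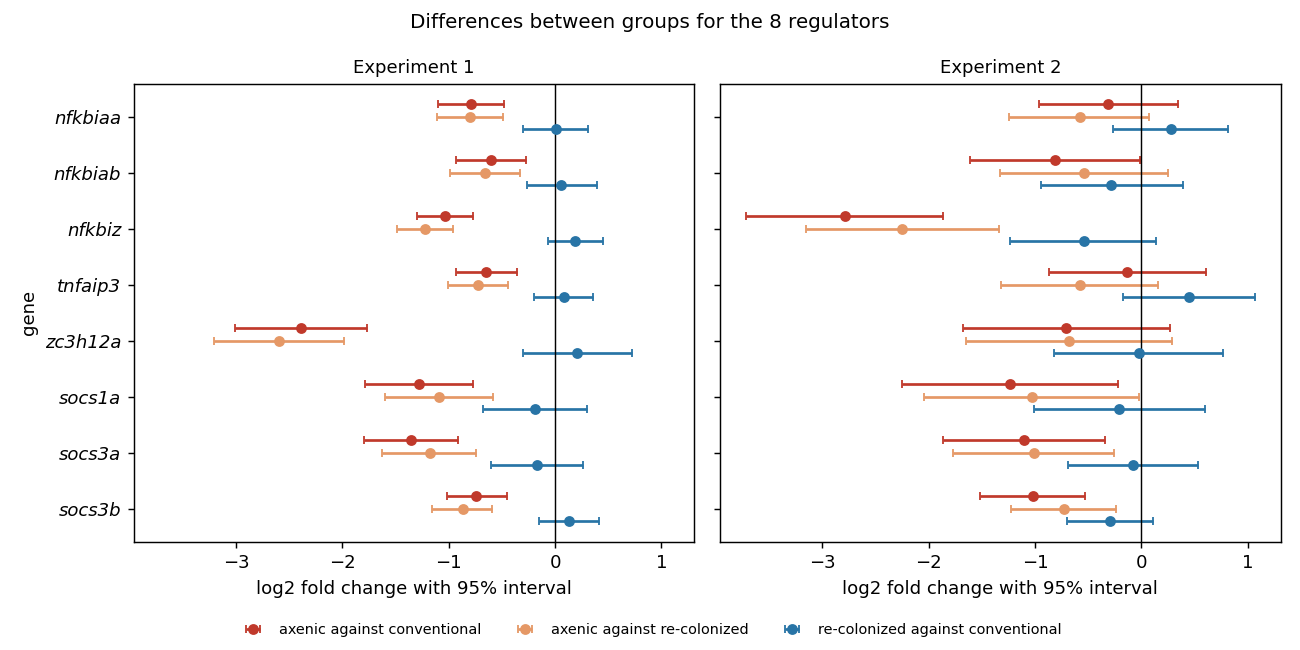
Log2 fold change (x axis) with its 95% interval from edgeR for the 8 genes (y axis) in 3 comparisons, experiment 1 on the left and experiment 2 on the right. The axenic comparisons lie left of 0 in experiment 1, the re-colonized against conventional intervals all cross 0, and the intervals are wider in experiment 2.

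An overlapping gene or a count that was not whole touches 5 of the 8 genes. nfkbiaa shares 353 bases with psma6b on the other strand, and in experiment 2 its estimated count was not whole in 18 of 18 libraries, where it was whole in 18 of 18 libraries of experiment 1. psma6b had a mean count of 195 beside 231 for nfkbiaa in experiment 1, and of 1460 beside 99.2 in experiment 2. In experiment 2 the count was also not whole in 4 libraries for nfkbiab and in 1 for nfkbiz. socs3a lies wholly inside cyth1a on the same strand, and socs3b shares 247 bases with pgs1 on the other strand. psma6b, cyth1a and pgs1 were not called in any comparison, at log2 fold changes of -0.10, -0.02 and -0.06 between axenic and conventional heads of experiment 1 (edgeR adjusted p = 0.588, 0.927 and 0.806). In experiment 2 these were -0.20, -0.02 and 0.55 (adjusted p = 0.814, 0.965 and 0.231). Use of the strand in counting is not given in the sources used here, and the part of shared reads in these values is uncertain.

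The 8 genes did not move as one across libraries of the same group. Pearson r between pairs, over deviations of log2 CPM from the group mean in the 18 libraries of an experiment, was positive for 21 of 28 pairs in experiment 1 (median 0.29, from -0.24 to 0.88) and for 18 of 28 in experiment 2 (median 0.15, from -0.56 to 0.65). These libraries share their depth and cell makeup within a pool, so r is given as a description. Only 4 pairs exceeded 0.4 in both experiments. They were nfkbiab with socs1a (0.83 and 0.65), socs1a with socs3a (0.72 and 0.48), nfkbiz with zc3h12a (0.57 and 0.46) and zc3h12a with socs3b (0.48 and 0.56). The 2 libraries farthest from the median of the pair's first-named gene were then left out. Among these 4 pairs only nfkbiab with socs1a, at 0.75 and 0.78, still exceeded 0.4 in both experiments. nfkbiz with zc3h12a then had 0.30 and 0.21, zc3h12a with socs3b 0.30 and 0.48, and socs1a with socs3a 0.75 and 0.36. nfkbiaa and socs3a had the highest r of experiment 1, 0.88, and 0.33 in experiment 2, and 0.85 and 0.48 with those 2 libraries left out.

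**Figure D4:**
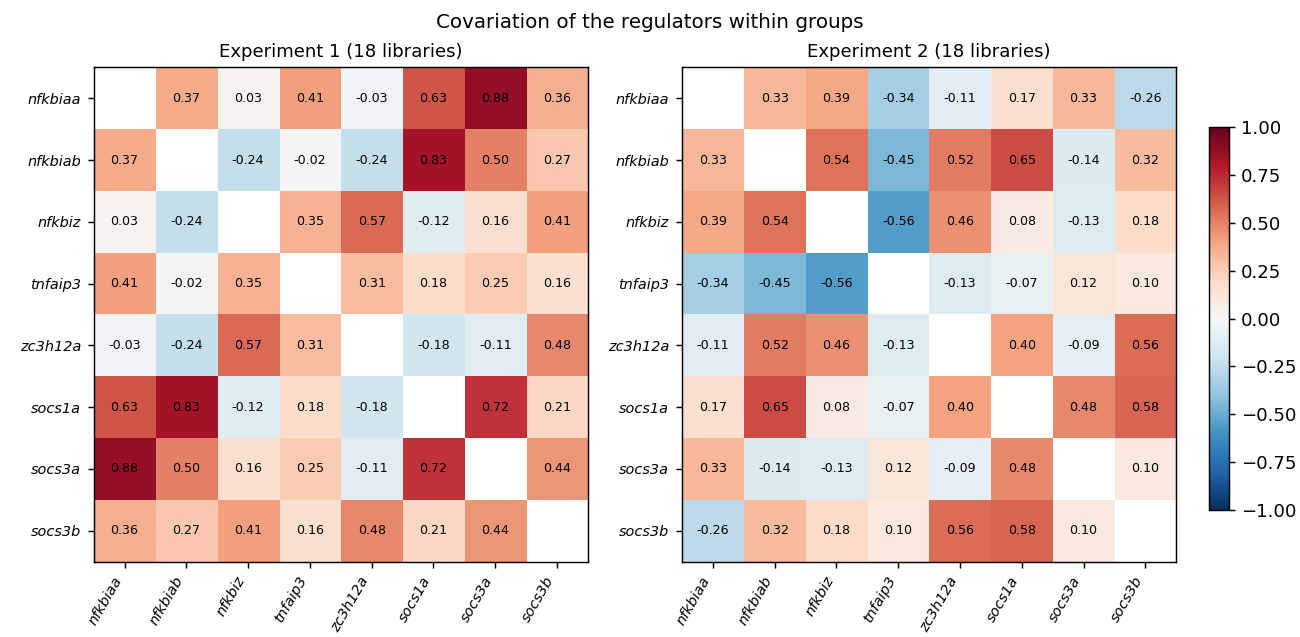
Pearson r between the 8 genes over deviations from group means, in experiment 1 (left) and experiment 2 (right), 18 libraries each, with red for positive and blue for negative r. The pair nfkbiab and socs1a is red in both panels, and tnfaip3 with nfkbiz is positive in experiment 1 and -0.56 in experiment 2.

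Single pools carried part of that pattern. Axenic C of experiment 1 had the highest axenic level of nfkbiaa, nfkbiab, socs1a and socs3a and the lowest of nfkbiz and zc3h12a. Conventional A had the highest level of nfkbiaa, socs1a and socs3a among conventional libraries and the lowest of zc3h12a and socs3b. In experiment 2 axenic 7 was lowest of the axenic libraries for nfkbiab, socs1a and socs3a.

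The genes whose deviations most resembled the mean of the 8 genes, among 13893 ranked, were cebpd, bicdl2l, nox1, nfkbie, coro1a and cyp2r1. Pearson r for cebpd, a transcription factor of acute inflammation, was 0.71 in experiment 1 and 0.76 in experiment 2. For nfkbie, another IκB, r was 0.75 and 0.69, and for nox1, an NADPH oxidase subunit that makes superoxide, it was 0.70 and 0.77. coro1a, an actin-binding protein of leukocytes, had r of 0.73 and 0.67, bicdl2l 0.70 and 0.77, and cyp2r1, a vitamin D hydroxylase, 0.66 and 0.71. As the top of a ranking by r, these values are high by selection. With 2 libraries of each experiment left out, r ran from 0.52 for bicdl2l to 0.81 for cebpd in experiment 1. In experiment 2 it then ran from 0.54 for nfkbie to 0.70 for bicdl2l and nox1. Of these 6 genes, cebpd and nox1 fell in axenic against conventional heads of experiment 2, with log2 fold changes of -1.36 ± 0.38 (edgeR adjusted p = 0.034) and -2.40 ± 0.41 (adjusted p = 0.000843).

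Other genes of the same pathways were counted in lists. These lists, and the marker lists below, were also chosen with earlier results of these data known. Their counts and p-values in axenic comparisons of experiment 1 are therefore a description, and those of experiment 2 are not independent support. In axenic against conventional heads of experiment 1, 6.71% of all genes were called lower. Among the NF-κB subunits and kinases, 4 of 16 were called lower there and 0 higher. rela, a subunit that activates target genes, fell by 0.58 on the log2 scale (edgeR adjusted p = 0.00153), while relb and rel, at -0.08 and -0.51, were not called (adjusted p = 0.673 and 0.178). Of the other NF-κB feedback genes, 13 of 38 were lower and 0 higher, with nfkbib at -0.38 ± 0.11 (adjusted p = 0.0207), nfkbie at -0.83 ± 0.17 (adjusted p = 0.00153) and bcl3 at -2.17 ± 0.43 (adjusted p = 0.000879). Against re-colonized heads of experiment 1, 6 of 16 subunits and kinases and 15 of 38 feedback genes were called lower, beside 8.27% of all genes. In experiment 2, 2 of 16 and 2 of 38 were called lower against conventional heads, beside 2.15% of all genes. rela was among them at -0.81 ± 0.20 (edgeR adjusted p = 0.0144). nfkbib, nfkbie and bcl3 were not, at -0.16, -0.86 and -1.92 (adjusted p = 0.647, 0.0867 and 0.204). Against re-colonized heads of experiment 2 edgeR called 0 of 16 and 0 of 38, beside 0.64% of all genes called lower. In these lists 5 and 6 genes had an unadjusted p under 0.05, and rela was at -0.60 ± 0.19 (adjusted p = 0.0968).

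Upstream and downstream genes were counted in the same way. Of receptors and adaptors, 3 of 19 were called lower in axenic against conventional heads of experiment 1, beside 6.71% of all genes. myd88, the adaptor of most Toll-like receptors, was at -0.38 ± 0.12 (edgeR adjusted p = 0.0343). irak1 (-0.22, adjusted p = 0.518) and irak4 (-0.46, adjusted p = 0.076) were not called. Of inducing cytokines, only 9 of 30 in the table passed the filter and 3 were called lower, il1b among them at -1.78 ± 0.36 (adjusted p = 0.001). csf1b and clcf1 had adjusted p of 0.166 and 0.859. In experiment 2 edgeR called 0 of 19 receptors and adaptors and 0 of 8 cytokines against conventional heads. Their median log2 fold changes there were 0.02 and 0.06, beside 0.044 over all genes. In experiment 1 these medians were -0.30 and -0.30, beside -0.008 over all genes. Against re-colonized heads of experiment 2, 0 of 19 and 0 of 8 were called as well.

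JAK-STAT genes were called lower in 10 of 38 cases in axenic against conventional heads of experiment 1. Of all genes, 6.71% were called lower and 8.89% higher there. stat3 was at -0.37 ± 0.11 (edgeR adjusted p = 0.0251) and il6st at -0.26 ± 0.09 (adjusted p = 0.0424), while jak1 at -0.26 ± 0.09 was not called (adjusted p = 0.0621). Of the other SOCS genes, 1 of 9 was lower, cish at -0.45 ± 0.13 (adjusted p = 0.0172), and cishb and socs2 had adjusted p of 0.266 and 0.125. Effector targets, such as secreted proteases and chemokines, were lower in 16 of 24 cases and higher in 2, with mmp9 at -1.56 ± 0.22 (adjusted p = 1.92e-05), cxcl18b at -1.18 ± 0.21 and mmp13a at -1.10 ± 0.21. The list medians were -0.29 for NF-κB subunits, -0.21 for other feedback genes, -0.17 for other SOCS genes and -0.86 for effector targets, beside -0.008 over all genes. For these lists in the same order, the medians against conventional heads of experiment 2 were -0.45, -0.13, 0.09 and -0.83, beside 0.044 over all genes. The JAK-STAT median was -0.26 in experiment 1 and -0.16 in experiment 2. In experiment 2 the calls against conventional heads were 4 of 24 effector targets, 1 of 35 JAK-STAT genes and 1 of 10 other SOCS genes, which was cish at -1.34 ± 0.33 (edgeR adjusted p = 0.0167), all lower, beside 2.15% of all genes called lower. Against re-colonized heads 1 effector target was called lower and 1 higher of 24, and 1 of 35 JAK-STAT genes lower, beside 0.64% of all genes called lower and 3.25% higher. Of the other SOCS genes 0 of 10 were called there by edgeR, with 0 at an unadjusted p under 0.05. mmp9, cxcl18b and mmp13a were not called in experiment 2, at -1.33, -2.01 and -1.50 against conventional heads (edgeR adjusted p = 0.177, 0.204 and 0.27). Nor was stat3, at -0.69 (adjusted p = 0.06). il1b was not called in experiment 2. It was at -2.18 ± 0.88 against conventional heads, on means of 0.133 and 0.591 CPM (edgeR adjusted p = 0.149). Against re-colonized heads it was at -2.66 ± 0.87 (adjusted p = 0.101).

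**Figure D5:**
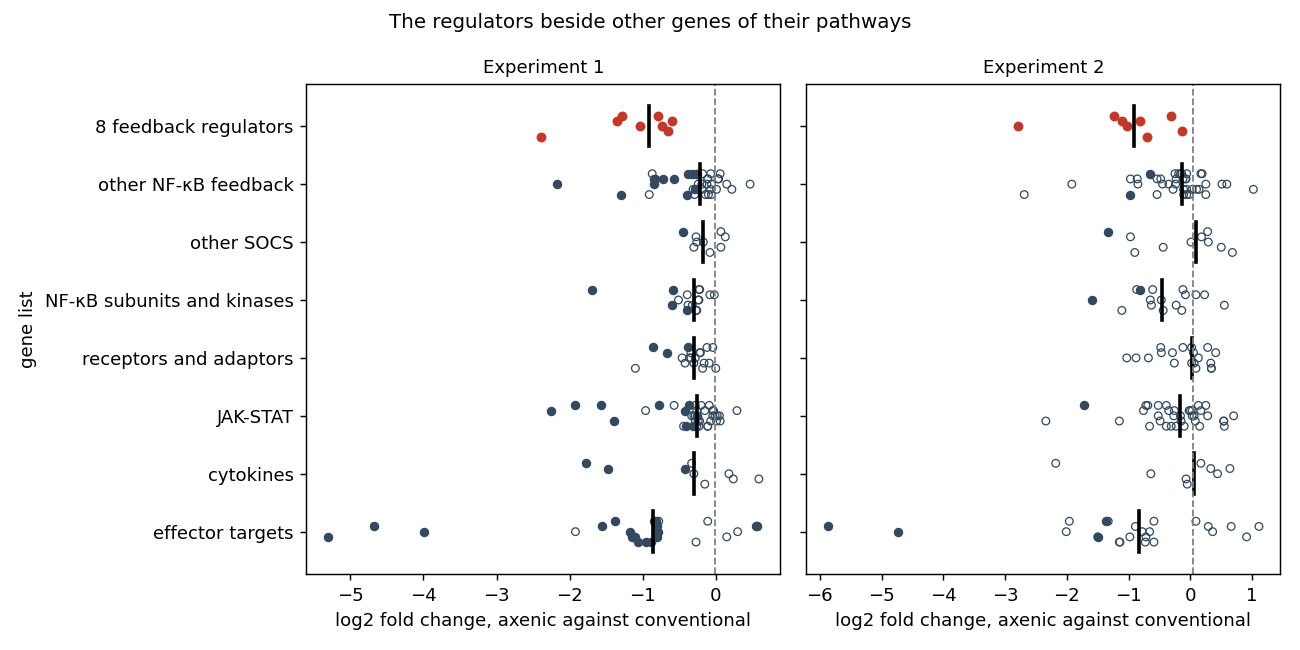
Log2 fold change (x axis), axenic against conventional heads, of the 8 feedback regulators (red) and of genes in 7 pathway lists, where filled dots passed an adjusted p of 0.05, open dots did not, black bars mark list medians and the dashed line the median of all genes. The effector targets reach the lowest values. The medians of the other pathway lists run from -0.30 to -0.17 in experiment 1, left of the dashed line at -0.008. In experiment 2 they run from -0.45 to 0.09, with the dashed line at 0.044.

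Several leukocyte markers were lower in the same heads as the 8 genes. In axenic against conventional heads of experiment 1, mpx, a neutrophil peroxidase, fell by 1.94 on the log2 scale (edgeR adjusted p = 4.99e-07), mpeg1.1, a macrophage gene, fell by 1.34 (adjusted p = 0.000381) and marco, a macrophage scavenger receptor, fell by 1.02 (adjusted p = 0.000354). mfap4, of the macrophage list, fell by 2.03 (adjusted p = 0.000808). lyz, a lysozyme gene of neutrophils and macrophages, was at -0.38 (adjusted p = 0.271) and rag1, a gene of developing lymphocytes, at 0.36 (adjusted p = 0.176), neither of them called. Of the T cell list, which holds rag1, 2 of 7 were called lower and 0 higher. These were ccr9a at -1.50 (edgeR adjusted p = 0.00105) and ptprc at -1.01 (adjusted p = 0.0108). Of the macrophage markers 9 of 18 were lower and 0 higher, and of the listed neutrophil markers 6 of 12 were lower and 3 higher. mmp13a and ncf1, among those 6, are also in the list of effector targets. The 3 higher were cpa5 at 0.55, cfl1l at 0.35 and s100a10b at 0.47, and which cells gave their RNA was not tested. Of all genes, 6.71% were called lower and 8.89% higher in that comparison. Summed levels of the macrophage list were 169 to 271 CPM in axenic, 235 to 315 in re-colonized and 205 to 289 in conventional heads. For the neutrophil list they were 617 to 894, 505 to 680 and 428 to 697 CPM. A single gene made up most of each sum in axenic heads, apoeb at 158 ± 35.3 CPM and cpa5 at 597 ± 124 CPM (SD, n = 6). Without apoeb, a choice made after these values were seen, the macrophage sums were 40.7 to 56.9, 94.9 to 142 and 74.9 to 106 CPM, and the axenic libraries lay below all others. Without cpa5 the neutrophil sums were 126 to 194, 150 to 191 and 137 to 169 CPM, and the groups overlapped. These sums still held cfl1l and s100a10b, at means of 57 and 53.4 CPM in axenic and 44.7 and 38.6 in conventional heads. mpx, which fell, had means of only 5 and 19.2 CPM there, so the sums say little about the lower markers. Against re-colonized heads of experiment 1, mpx, mpeg1.1 and marco were called lower (edgeR adjusted p = 1.02e-06, 1.12e-05 and 6.14e-05). There mfap4 at -1.17, lyz at -0.61 and rag1 at 0.05 were not called (edgeR adjusted p = 0.0552, 0.0611 and 0.878). Of the T cell list 4 of 7 were called lower there and 0 higher, beside 8.27% of all genes called lower. Its sums were 25.9 to 32.2 CPM in axenic, 39 to 56.3 in re-colonized and 30.6 to 42.3 in conventional heads.

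In experiment 2 the macrophage sum was 237 to 496 CPM in axenic, 246 to 590 in re-colonized and 417 to 977 in conventional heads, and the neutrophil sum 383 to 572, 58.2 to 642 and 149 to 713. c1qa, a complement gene of macrophages, was at 0 in the axenic libraries. Its level in the other groups is not given here, it did not pass the low-count filter in experiment 1, and nothing is read from that 0. Without apoeb and cpa5 the macrophage sums were 34.4 to 45.8, 42.8 to 63.4 and 40.3 to 129 CPM and the neutrophil sums 114 to 144, 52.5 to 225 and 93.8 to 349 CPM, with overlap. Against conventional heads 3 of 20 macrophage and 1 of 11 neutrophil markers were called lower, beside 2.15% of all genes, and none of either list higher. Of the T cell list 0 of 8 were called in either axenic comparison. mpx was 35.3 ± 8.49 CPM in axenic and 107 ± 59.9 in conventional heads (edgeR adjusted p = 0.0204), and marco fell by 2.39 on the log2 scale (adjusted p = 0.000843). mpeg1.1, lyz and mfap4 were not called (adjusted p = 0.108, 0.605 and 0.342). Against re-colonized heads marco was called lower (edgeR adjusted p = 0.0474), while mpx, mpeg1.1, lyz and mfap4 were not called (adjusted p = 0.213, 0.762, 0.887 and 0.885). The part of these cells in the lower levels of the 8 genes was not tested, and in pooled heads fewer cells of a type and less RNA per cell cannot be told apart.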

How the data were processed

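Both deposited tables give unnormalized estimated counts per gene, for 18 libraries each. The tools were bcl2fastq, Partek 8.0.19.0428 and the aligner STAR 2.5.3a, with the build GRCz11, per the submitters' processing notes. Per the labels' protocols, experiment 1 used stranded, ribosomal RNA-depleted paired-end libraries and experiment 2 polyA-selected libraries. The sources used here do not give the annotation or the use of strand in counting. Values more than 0.01 away from whole made up 9.44% and 17.3%, and all were rounded. The test planned for whole counts was kept.

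The test over each whole table was edgeR's quasi-likelihood fit (version 4.0.16, R 4.3.3) with TMM scaling, a mean per group over 18 libraries and edgeR's low-count filter, leaving 19727 and 20169 genes. Calls needed an adjusted p (Benjamini-Hochberg, two-sided) below 0.05. SE was computed as |log2 fold change| over the root of F, and 95% intervals from it with a t quantile. Alternatives were DESeq2 1.42.0, limma 3.58.1 voom with quality weights, size factors from DESeq2, no low-count filter, a minimum mean of 1 CPM, only the 2 groups compared, a replicate block, without 7SL and 7SK RNAs, without re-colonized 1 and 7 of experiment 2, and leaving out each library. The procedure was tested on simulated data. Each pair of libraries of the same group differed by more than sampling noise (lowest chi-square per degree of freedom 5.54 and 29.4).

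The 8 genes and the lists were chosen with earlier results of these data known. Named from each pathway list were its first 3 genes in list order that passed both filters, and 6 genes most like the 8 by the smaller r of both experiments at a mean of at least 1 CPM. Leukocyte genes with values are markers from their lists. Marker sums without the most abundant gene were added after seeing the data.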

Additional observations from a re-analysis of the deposited data

Results flagged for a closer look

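Of 48 combinations of gene, group and experiment checked for a sample far from the others, 3 stood out, and chance alone gives about 1 in 20. In axenic C of experiment 1, nfkbiaa was 16.8 CPM, with the nearest axenic library at 12 CPM. In conventional A of experiment 1, nfkbiaa was 26.6 CPM, with the nearest conventional library at 20.3 CPM. In conventional 2 of experiment 2, socs1a was 8.57 CPM, with the nearest at 4.19 CPM.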

How the results depend on the processing

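The axenic comparisons of experiment 1 chose the genes, so their counts, 8 of 8 under each of 8 alternatives and 18 left-out libraries, support nothing. In axenic against re-colonized heads of experiment 2 the count of 1 became 2 with DESeq2 and limma voom (nfkbiz and socs3b) and 2 with a replicate block (nfkbiz and socs3a). In axenic against conventional heads of experiment 2 the count of 2 ranged from 1 to 3 when a library was left out, 1 without axenic 7 and 3 without re-colonized 1. Replicate numbers are not stated to pair libraries. Same-numbered libraries of different groups had a median r of 0.012 over 13 pairs in experiment 1, beside 0.002 over 95 pairs of other numbers. In experiment 2 it was 0.131 over 15 pairs, beside -0.024 over 90, and r exceeded 0.1 in 10 of 15 and 22 of 90. In experiment 1, 5 of 17 libraries correlated best with their own number, and in experiment 2, 10 of 18. The count that unrelated numbers would give was not computed, so a shared replicate effect in experiment 2 is not excluded. With the replicate block, socs3a was at -1.43 against conventional (adjusted p = 0.00357) and -1.22 against re-colonized heads (adjusted p = 0.012), and the latter count rose from 1 to 2.

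Reversals touched differences near 0; their cause was not tested. Against conventional heads, re-colonized heads turned to -0.10 for nfkbiaa in experiment 1 with limma voom, and in experiment 2 to 0.03 for zc3h12a and 0.03 for socs1a with voom, 0.06 for zc3h12a with the replicate block and 0.12 without re-colonized 1 and 7. tnfaip3, axenic against conventional in experiment 2, turned to 0.17 with voom and ranged from -0.29 to 0.06 when a library was left out. Re-colonized against conventional values ranged, with a library left out, from -0.10 to 0.10 (nfkbiaa), -0.07 to 0.16 (nfkbiab), -0.01 to 0.17 (tnfaip3) and 0 to 0.37 (zc3h12a) in experiment 1, and from -0.16 to 0.19 (zc3h12a), -0.36 to 0.14 (socs1a) and -0.40 to 0.01 (socs3a) in experiment 2. At a mean of 1 CPM zc3h12a was not tested in experiment 2. Without a filter, 1 in place of 2 other NF-κB feedback genes was lower in experiment 2. Low counts limit zc3h12a and socs1a in experiment 2, with as few as 6 per library.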
